A study of Homo sapiens with 4 samples.

Results

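The genes described here encode the factors that start and extend translation, the eukaryotic initiation factors (eIF1 to eIF6) and elongation factors (eEF1 and eEF2), together with the kinases, methyltransferases and binding proteins that share their symbols. They were chosen by symbol, as the protein-coding genes of GENCODE on hg19 whose names begin with EIF1 to EIF6 or with EEF1 or EEF2, and no measured value entered the choice. The rule gave 71 genes of 20149. Their H3K27ac, acetylation of histone H3 that marks promoters and enhancers in use, was read from ChIP-seq peak lists of K562, an established human erythroleukaemia line. One library carried TFAM hairpin 1 (TFAM-sh1), one carried TFAM hairpin 2 (TFAM-sh2) and one carried the non-targeting control shRNA (shNT). All 3 came from transduced K562 cells, with chromatin precipitated by the same antibody, and each hairpin is a separate shRNA against TFAM, the protein that coats the mitochondrial genome and is needed to transcribe it. The series asked how H3K27ac across the genome responds to loss of TFAM in erythroid cells.

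Each condition had 1 library, so the spread between replicates is unknown, no p-value is given, and every difference compares libraries and not conditions. There were 23819 peaks in hairpin 1, covering 54.4 Mb, 27007 in hairpin 2, covering 61.9 Mb, and 23413 in the control, covering 52.1 Mb, and read depths are not given. The knockdown cannot be read from these lists, since shRNAs target transcripts: the TFAM promoter was marked in all lists, over 2787 bp in hairpin 1, 2447 bp in hairpin 2 and 2983 bp in the control. Among genes used to check the red cell lineage, LMO2, HBZ and TFRC had a promoter peak in every list. TAL1 had none in hairpin 2, GFI1B had one in the control alone, and GATA1, KLF1, HBG1 and HBG2 had none in any list.

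In the initiation pathway, eIF2 bound to GTP brings the initiator tRNA to the small ribosomal subunit, eIF3 holds the scanning complex together, and eIF4F loads it onto the capped mRNA. After start codon recognition eIF5 triggers GTP hydrolysis, eIF2B recharges eIF2, and eIF5B joins the large subunit. Kinases that phosphorylate eIF2 turn that cycle down under stress, whereas eEF1A and eEF2 then deliver aminoacyl-tRNA and move the ribosome along. Red cell precursors depend on this control, since globin synthesis is matched to heme through the eIF2 kinase EIF2AK1. Many messages for the translation machinery begin with a C and a run of pyrimidines, the terminal oligopyrimidine (TOP) start through which mTOR signalling controls their translation.

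That start was frequent among the annotated start sites. In the 30 bases shown for each of 8 genes, which run from 10 bases before the annotated start to 20 bases from it on, the capitals mark the first C and the pyrimidines that follow it without a break. They are shown because they are the sequence feature in which these genes stood furthest from other marked genes, and all come from GRCh37.
EEF1A1 (chr6:74230736-74230765, minus strand): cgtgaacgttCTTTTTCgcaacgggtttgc
EEF2 (chr19:3985442-3985471, minus strand): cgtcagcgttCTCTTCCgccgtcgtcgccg
EEF1B2 (chr2:207024609-207024638, plus strand): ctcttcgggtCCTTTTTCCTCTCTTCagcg
EIF3A (chr10:120840310-120840339, minus strand): gtggctccttCCTTTCCgtctctggccggc
EIF3D (chr22:36925194-36925223, minus strand): cgcatgtttcCTCTTTTCCTggtttctcaa
EIF3F (chr11:8008874-8008903, plus strand): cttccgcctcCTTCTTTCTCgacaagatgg
EIF4A2 (chr3:186501356-186501385, plus strand): gcgccgctgtCTTTTCagtcgggcgctgag
EIF4B (chr12:53400230-53400259, plus strand): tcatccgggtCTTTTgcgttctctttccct

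Among these 8 the run was longest in EEF1B2, at 16 bases, and was 10 bases in EIF3D and EIF3F. It was 7 bases in EEF1A1, EEF2 and EIF3A, 6 bases in EIF4A2 and 5 bases in EIF4B. Of the 71 genes, 21 (29.6%) had an annotated start at C with at least 4 pyrimidines after it, against 4.56% of all coding genes. Among genes with a promoter peak in all 3 lists the shares were 28.8%, or 19 of 66, and 5.56%. By role, 10 of 14 eIF3 genes, 5 of 11 elongation factor genes, 4 of 12 genes of start codon recognition and eIF2, and 2 of 12 genes of the cap complex had such a start. EIF3C and EIF3CL, with the same bases there, and the near-identical EIF2S3 and EIF2S3B are each counted separately. None of the genes for eIF2B, the eIF4E-binding proteins, the eIF2 kinases, subunit joining or the elongation factor enzymes had one.

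Promoter letters are shown for 6 genes, as the 200 bases that end just before the annotated start, from GRCh37. EEF1A1, EEF2, EIF3F and EIF3C carry differences between lists described here, EIF3CL is the copy of EIF3C, and EIF4E is an example of a promoter with an E box. Capitals mark matches, on either strand, to TATA boxes, E boxes, GC boxes, CCAAT boxes, cyclic AMP response elements and ETS cores.
EEF1A1 (chr6:74230756-74230955, minus strand): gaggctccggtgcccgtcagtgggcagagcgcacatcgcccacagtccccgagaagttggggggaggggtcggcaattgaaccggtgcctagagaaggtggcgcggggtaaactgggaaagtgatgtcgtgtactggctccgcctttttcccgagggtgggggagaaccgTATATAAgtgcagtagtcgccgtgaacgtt
EEF2 (chr19:3985462-3985661, minus strand): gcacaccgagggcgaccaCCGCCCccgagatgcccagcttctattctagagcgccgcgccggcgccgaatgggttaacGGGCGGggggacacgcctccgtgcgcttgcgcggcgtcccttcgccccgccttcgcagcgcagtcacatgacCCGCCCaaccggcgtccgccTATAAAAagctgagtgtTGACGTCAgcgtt
EIF4E (chr4:99850285-99850484, minus strand): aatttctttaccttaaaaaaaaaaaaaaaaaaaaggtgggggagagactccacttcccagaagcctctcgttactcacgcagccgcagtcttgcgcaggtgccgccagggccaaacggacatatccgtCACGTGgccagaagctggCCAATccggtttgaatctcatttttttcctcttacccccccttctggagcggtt
EIF3F (chr11:8008684-8008883, plus strand): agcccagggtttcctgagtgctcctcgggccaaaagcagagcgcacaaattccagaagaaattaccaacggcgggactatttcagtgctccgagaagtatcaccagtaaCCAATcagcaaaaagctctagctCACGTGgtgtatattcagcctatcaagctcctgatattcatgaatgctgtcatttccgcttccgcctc
EIF3C (chr16:28722585-28722784, plus strand) and EIF3CL (chr16:28415163-28415362, minus strand): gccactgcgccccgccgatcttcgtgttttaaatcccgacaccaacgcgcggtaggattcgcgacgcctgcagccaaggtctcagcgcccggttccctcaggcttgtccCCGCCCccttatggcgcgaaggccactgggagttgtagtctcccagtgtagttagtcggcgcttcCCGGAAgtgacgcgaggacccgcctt

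The TATA box, searched as TATANAA, began 30 bases before the start in both EEF1A1 and EEF2. The EEF2 promoter also held GC boxes, searched as GGGCGG, that began 182, 122 and 50 bases before the start. Its cyclic AMP response element, searched as TGACGTCA, began 13 bases before it. EIF4E and EIF3F held an E box, searched as CACGTG, the motif that MYC and related factors bind, 72 and 68 bases before the start. Each also held a CCAAT box, 54 and 91 bases before it. The promoters of EIF3C and EIF3CL, near-identical copies on chromosome 16, matched in 200 of 200 bases, with a GC box and an ETS core (CCGGAA) 91 and 26 bases before the start. Their match ran without a break for 1320 bp before the start and 756 bp from it on.

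Over a longer window, 250 bases before the start and 50 from it on, an E box was present in 17 of 66 marked translation factor genes (25.8%) and in 10.9% of all coding genes marked in every list. An ETS core was present in 43.9% and 34.6%, a GC box in 81.8% and 77.0%, and a CCAAT box in 42.4% and 36.7%. The TATA box letters TATANAA were matched, at any position in this window, in 7 of 66 genes (10.6%) and in 2.98%. Those letters were chosen after the EEF1A1 promoter had been seen, and a match need not lie 30 bases before the start. With the letters TATAAA the shares were 6.06% and 4.37%. Copies and shared starts are counted separately here. EIF3C and EIF3CL are both among the 7 genes with a TATANAA match, which in them lies outside the 200 bases shown above. EEF1AKMT4 and EEF1AKMT4-ECE2 are both among the 17 with an E box. These letters are a description of the sequence and not of binding.

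**Figure D1:**
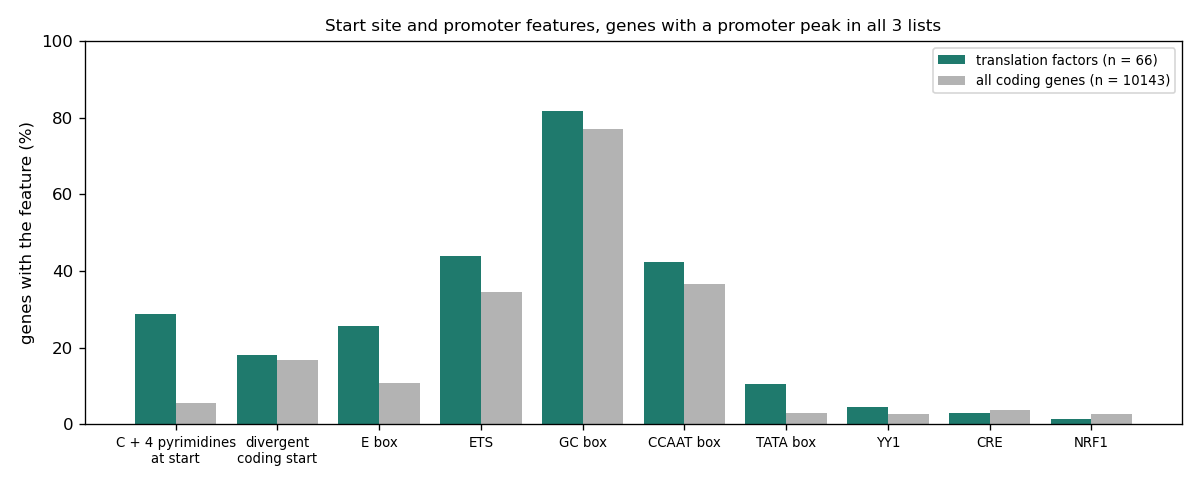
The bars give the percentage of genes with each start site or promoter feature, in 66 translation factor genes (green) and in 10143 coding genes (grey, translation factors included) that had a promoter peak in all 3 lists. The C and pyrimidine start stands at 28.8% against 5.56% and the E box at 25.8% against 10.9%, while a divergent coding start stands at 18.2% against 16.9%.

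H3K27ac was present at nearly every one of these promoters, whichever shRNA the cells carried. A promoter was the start site of the canonical transcript with 1 kb on each side. A promoter peak was listed in 67 of the 71 genes in hairpin 1, 68 in hairpin 2 and 66 in the control. In all, 66 genes (93.0%) had one in every list, beside 50.3% of all coding genes. Some of the 71 are near-identical copies or share a start site window, and without those the count was 60 of 63. In each of those 66 genes the peak covered the start site itself, in every list, whereas 98.2% of all coding genes marked in every list had it covered in hairpin 1, 97.9% in hairpin 2 and 97.1% in the control.

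The 5 other genes were EEF1A1, EIF5AL1, EIF1AY, EIF2S3B and EIF4E1B. EIF1AY, the Y-linked copy of EIF1AX, EIF2S3B, a copy of EIF2S3, and EIF4E1B, a germ-line relative of EIF4E, had no promoter peak and no covered sequence within 5 kb in any list. These 3 genes are 4.23% of the 71, beside 41.4% of all coding genes with no promoter peak in any list. EIF5AL1, an intronless relative of EIF5A, had 571 bp covered in hairpin 2 and 0 bp in hairpin 1 and the control. Its hairpin 2 peak (chromosome 10, 81272381 to 81272951) began 92 bp beyond the start site. Since the study kept reads with a single place in hg19, EIF2S3B and EIF5AL1 may have been marked in lists that hold no peak there. Whether these K562 cells carry a Y chromosome was not tested, so 0 bp at EIF1AY does not show an unmarked promoter.

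The promoter peaks ranked high within their lists. Each peak carries a score given by the authors, and here it served to rank the peaks of a list among themselves. In the 66 genes the median score percentile was 83.1 in hairpin 1 (quartiles 77.3 and 90.6), 87.3 in hairpin 2 (81.6 and 93.9) and 87.0 in the control (79.7 and 94.7). All marked coding genes had medians of 79.3, 81.7 and 78.1 in the same lists. EIF3B, a scaffold subunit of eIF3, stood at percentile 98.7 in hairpin 1, 96.2 in hairpin 2 and 99.7 in the control, and EIF4H, which stimulates the eIF4A helicase, at 99.1, 98.8 and 97.0. EEF1A2, the elongation factor of neurons and muscle, stood at 9.27, 48.7 and 49.95, the lowest of the 66 genes in hairpin 1. The lowest were EIF4E3 in hairpin 2, at 48.1, and EIF4EBP3 in the control, at 34.8.

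The length of marked sequence was also above that of other marked genes. Covered sequence was summed within 5 kb on each side of the start site. Its median over the 66 genes was 3150 bp in hairpin 1 (661 to 5161), 3440 bp in hairpin 2 (1112 to 6301) and 3006 bp in the control (1175 to 6350). The medians over all 10143 marked coding genes were 2707, 2875 and 2609 bp in the same lists. A single peak within 5 kb made up that length in 65 genes in hairpin 1 (98.5%), 62 in hairpin 2 (93.9%) and 65 in the control (98.5%). Of all marked coding genes, 93.5%, 92.2% and 93.7% had a single peak, close to these shares.

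**Figure D2:**
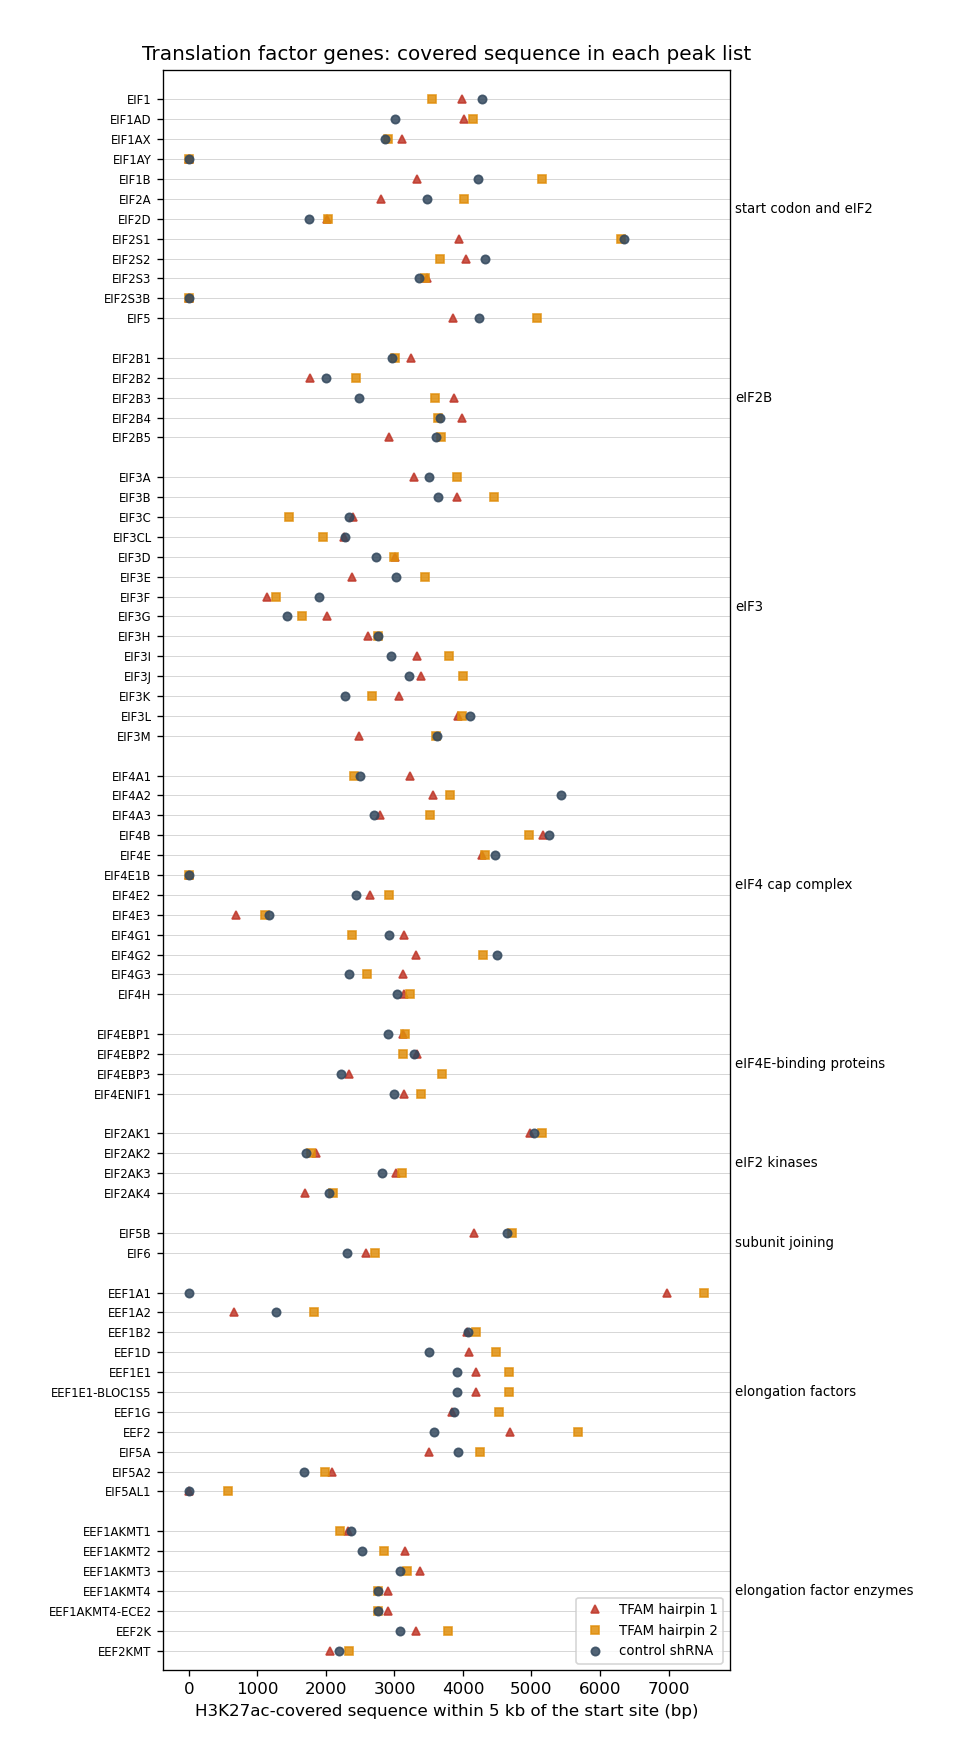
Each row is a translation factor gene, grouped by role, and the horizontal axis gives the base pairs covered by H3K27ac peaks within 5 kb of its start site in hairpin 1 (triangles), hairpin 2 (squares) and the control (circles); points at the same value lie over each other. EEF1A1 stands apart, with 6972 and 7516 bp in the hairpin lists and 0 bp in the control, and EIF1AY, EIF2S3B and EIF4E1B lie at 0 bp in every list.

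Peaks extended more downstream than upstream of the start. Downstream coverage exceeded upstream coverage in 43 of the 66 genes in hairpin 1 (65.2%), 48 in hairpin 2 (72.7%) and 43 in the control (65.2%). For all marked coding genes these shares were 63.8%, 68.6% and 62.8%, so this lean was close to the background. A position 950 bp downstream was covered in 93.9% of the translation factor genes in hairpin 1, 95.5% in hairpin 2 and 89.4% in the control, and in 81.6%, 86.7% and 78.1% of all marked genes. At 1450 bp upstream the translation factors were also above, with 48.5%, 43.9% and 43.9% against 33.9%, 34.8% and 31.7%. Their median upstream coverage was 1405.5, 1362.5 and 1301 bp, against 1171, 1162 and 1129 bp for all marked genes. Only farther out, as at 3050 bp upstream, was the order the other way. There 0%, 3.03% and 1.52% of translation factor genes were covered, which is few genes, and 5.28%, 6.22% and 4.72% of all marked genes.

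**Figure D3:**
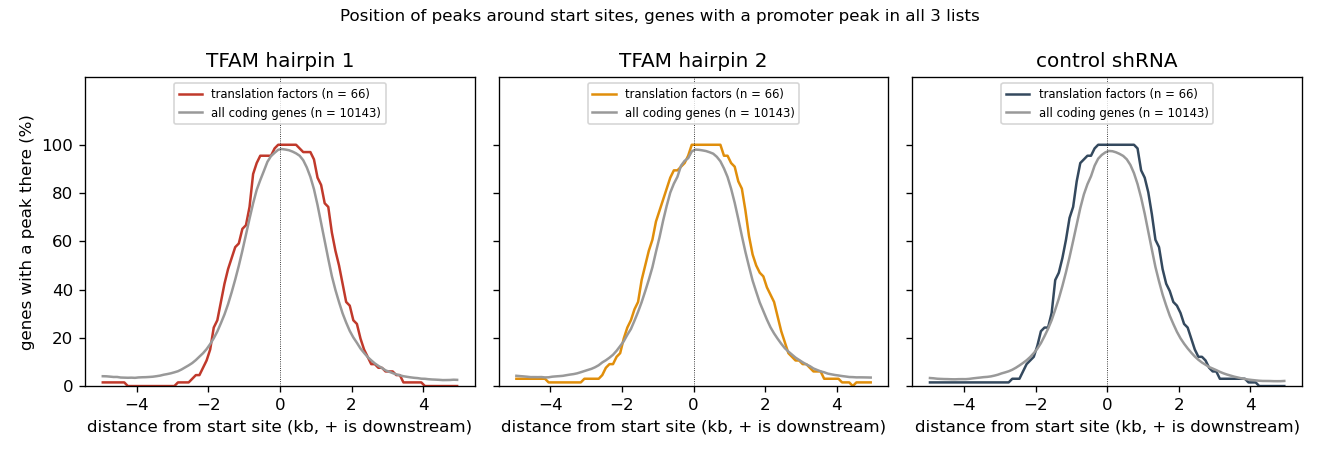
The panels give, for hairpin 1, hairpin 2 and the control, the percentage of genes with a peak at each position from 5 kb upstream to 5 kb downstream of the start site, in the gene's own direction. The translation factor genes (coloured, n = 66) reach 100% at the start. They stay above all marked coding genes (grey, n = 10143) at 950 bp downstream and at 1450 bp upstream, but fall below them at 3050 bp upstream.

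A coding gene started on the other strand within 1 kb upstream of 13 of the 71 genes. Among genes marked in every list the share was 18.2% for translation factors (12 of 66) and 16.9% for all genes. The 13 include EIF4E1B, next to SNCB, with no covered sequence in any list. Marked pairs this close can share a peak, and the mark of one then cannot be told from that of its neighbour. Examples are EIF3I with TMEM234, 54 bp apart, EIF2B1 with GTF2H3, 143 bp apart, EIF2A with SERP1, 291 bp apart, and EEF1B2 with NDUFS1, a subunit of respiratory complex I, 451 bp apart. The median G+C content within 1 kb of the start was 57.2% for the 66 genes and 57.5% for all marked genes, so the translation factors did not stand apart in base composition.

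The next comparison asked which of these genes differed with the TFAM hairpins. Gains and losses of a promoter peak were few. One gene, EEF1A1, had a promoter peak in hairpin 1 and none in the control, or 1.41% of the 71 beside 3.18% of all coding genes. EEF1A1 and EIF5AL1 had one in hairpin 2 and none in the control, or 2.82% beside 3.21%. Only a gene without a control promoter peak could gain one. Since 66 of the 71 genes had a control peak, beside 10823 of 20149 coding genes, few of the 71 could, and the shares of gains are not like for like. No gene had a control promoter peak that was missing in hairpin 1, beside 2.16%, or in hairpin 2, beside 2.04%. EEF1A1 was thus the 1 gene gained in both hairpins, beside 1.53% of all coding genes, and none was lost in both, beside 0.829%. Both hairpin lists were set against the same control list, so the counts are not independent.

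EEF1A1 encodes the main form of eEF1A, which brings aminoacyl-tRNA to the ribosome and is among the most abundant proteins of the cell. It lies on the minus strand of chromosome 6 (74199031 to 74235310, canonical start 74230755). Its peak spanned 6972 bp in hairpin 1 (74227494 to 74234465) and 7516 bp in hairpin 2 (74226886 to 74234401), while the control list held no peak within 42921 bp of the start. In the hairpin lists it was the longest coverage of all 71 genes and reached percentile 99.4 and 99.6 of all coding genes, with peak scores at percentile 61.4 and 60.0. The 2 hairpin peaks therefore had like borders, on both sides of the start, around the promoter and the TOP start shown above.

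Other peaks within 60 kb of EEF1A1 were listed in the control too. The peak farther downstream spanned 3574 bp in hairpin 1, 2677 bp in hairpin 2 and 2440 bp in the control, and the farthest upstream peak spanned 2587, 2538 and 2464 bp. A further upstream peak of 812 bp in hairpin 2 and 1713 bp in the control had no counterpart in hairpin 1. The widest peaks of the lists were 8781, 8841 and 8704 bp. Of the 240 hairpin 1 peaks at least as wide as that at EEF1A1, 33 (13.8%) had no control peak, beside 22.5% of all hairpin 1 peaks and 4.07% of those within 5 score percentile points of it. In hairpin 2 these values were 32 of 174 (18.4%), 27.7% and 9.41%. The absence of a control peak does not show that the promoter was unmarked, and the part of depth and of peak calling in it was not tested.

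**Figure D4:**
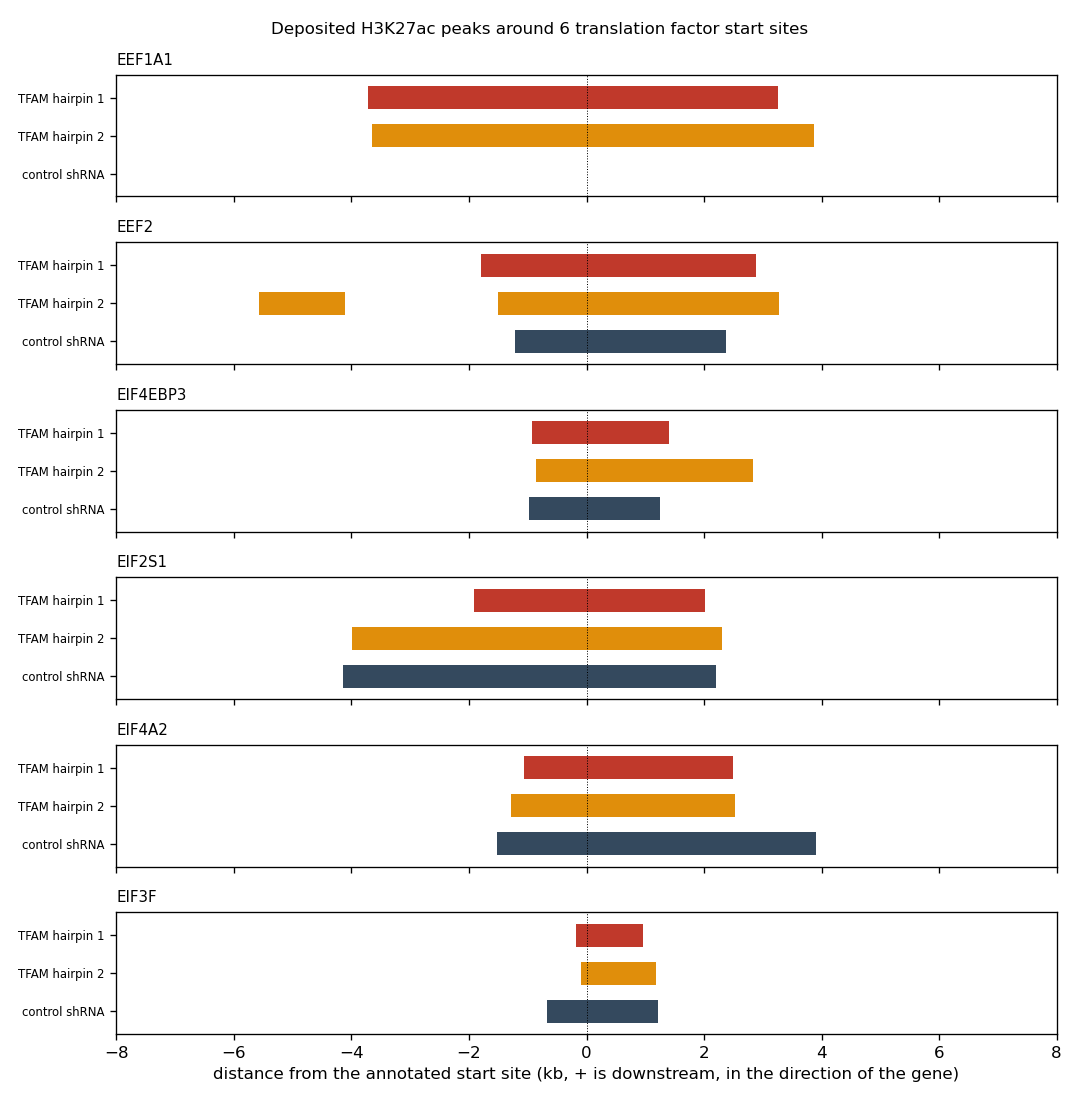
Bars are the deposited H3K27ac peaks within 8 kb of the start sites of EEF1A1, EEF2, EIF4EBP3, EIF2S1, EIF4A2 and EIF3F in hairpin 1 (top), hairpin 2 (middle) and the control (bottom), by distance from the start in the gene's own direction. The EEF1A1 panel has no control bar, the EIF3F peaks reach 177, 87 and 680 bp upstream, and EEF2 has a second peak upstream in hairpin 2.

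Among genes marked in every list, coverage hardly moved. Hairpin 1 over control had a median log2 ratio of covered sequence of 0.05, with quartiles of -0.10 and 0.12. Hairpin 2 over control had 0.10, with quartiles of -0.01 and 0.25. Over the 10901 coding genes with covered sequence in every list these medians were 0.05 and 0.12. The median over those genes in each hairpin is called the shift of its list below. It describes windows around start sites and not all peaks of the list. Relative to the hairpin 2 shift of 0.12, the translation factors had a median of -0.01. In hairpin 2, 48 of the 66 genes (72.7%) were above the control, beside 66.4% of all marked genes, and 31 (47.0%) after the shift was taken off, beside 49.5%. A change of at least 1.5-fold either way was seen in 6 of 66 genes (9.09%) in hairpin 1, beside 12.9% of all marked genes, and in 4 of 66 (6.06%) in hairpin 2, beside 13.5%. Marked genes whose control score percentile lay within the quartiles of the translation factors had 6.79% in hairpin 1 and 7.93% in hairpin 2, beside 1 of 32 translation factor genes in that range (3.13%) in each hairpin.

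**Figure D5:**
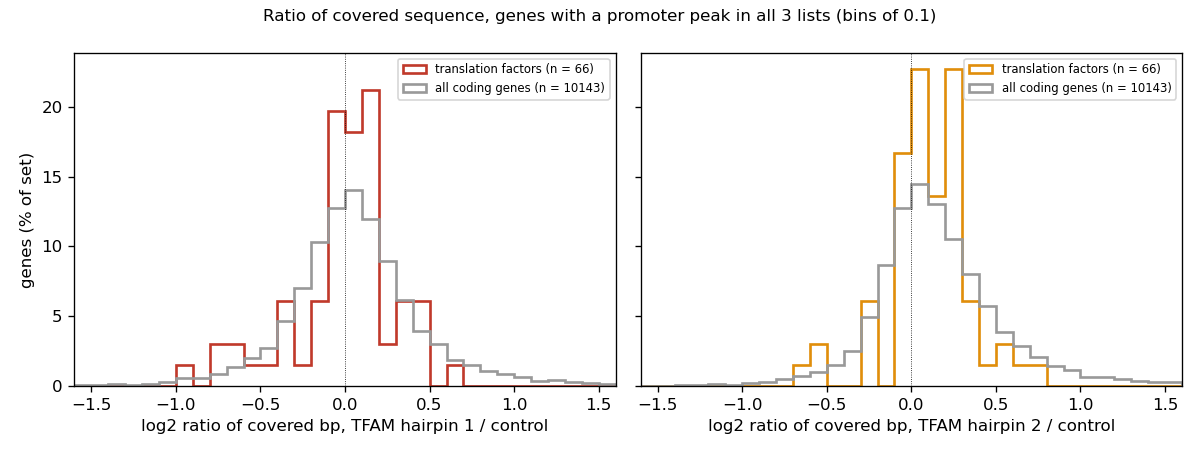
Histograms of the log2 ratio of covered sequence for hairpin 1 over control (left) and hairpin 2 over control (right), as a percentage of each set in bins of 0.1, for 66 translation factor genes (coloured) and 10143 coding genes (grey) with a promoter peak in every list. Both sets centre near 0, at 0.05 and 0.10 for the translation factors.

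Counts here run over the 68 genes covered in at least 1 list, and the shares beside them over the 12780 coding genes so covered. In hairpin 1, 2 genes had at least 1.5-fold more covered sequence than in the control (2.94%, beside 14.2%). Another 5 had at least 1.5-fold less (7.35%, beside 8.63%). In hairpin 2, 4 genes had more (5.88%, beside 16.9%) and 2 had less (2.94%, beside 6.5%). With each list divided by its median ratio to the control, which lowers the hairpin 2 values, the split in hairpin 1 was 2 with more, beside 13.3%, and 6 with less, beside 9.44%. In hairpin 2 it was 3 with more, beside 13.9%, and 3 with less, beside 7.74%. EEF1A1 was counted as more in both hairpins and EIF3F as less in both. With whole lists and canonical starts, no other gene passed 1.5-fold in both hairpins in the same direction without scaling. The shared control list enters both ratios. After scaling EIF4A2 was counted as less in both as well.

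EIF3F, a subunit of eIF3 with a metalloprotease-like fold, had 1136 bp in hairpin 1, 1266 bp in hairpin 2 and 1905 bp in the control, or 0.60 and 0.66 times the control. The difference lay mainly before the start, where 177 bp, 87 bp and 680 bp were covered, against 959, 1179 and 1225 bp after it. The annotated 5' end of the EIF3F gene lies elsewhere, and there 0 bp were covered in every list.

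The genes of start codon recognition and eIF2 were marked in 10 of 12 cases, the exceptions being the copies EIF1AY and EIF2S3B. Their median log2 ratio was -0.10 in hairpin 1 and 0.12 in hairpin 2, and it was 0.00 in hairpin 2 after the shift of the list was taken off. EIF2S1, the alpha subunit of eIF2 and the target of the eIF2 kinases, had 3937 bp in hairpin 1, 6301 bp in hairpin 2 and 6350 bp in the control. Hairpin 1 was the low one, at 0.62 times the control, and the difference lay mainly upstream (1922, 3990 and 4140 bp), towards ATP6V1D, which starts 524 bp away on the other strand. The control peak stood at score percentile 39.9: in the higher-scoring 50% of each list EIF2S1 had 3937, 6301 and 0 bp, so that both hairpins were above the control. Within 2.5 kb it had 3937, 4811 and 4710 bp, and the call in hairpin 1 ended. EIF2S2, the beta subunit, had 4043, 3671 and 4317 bp, and EIF2S3, the gamma subunit, had 3479, 3440 and 3356 bp. EIF1, which guards start codon choice, had 3990, 3550 and 4272 bp. EIF5, the partner that triggers GTP hydrolysis, had 3855, 5077 and 4235 bp, so the order of the lists differed from gene to gene. The other marked genes here, EIF1AD, EIF1AX, EIF1B, EIF2A and EIF2D, lay between 0.79 and 1.33 times the control in hairpin 1 and between 1.014 and 1.38 times in hairpin 2.

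All 5 eIF2B genes, which encode the exchange factor that recharges eIF2, were marked in every list. EIF2B3, the gamma subunit, had 3863 bp in hairpin 1, 3595 bp in hairpin 2 and 2482 bp in the control, or 1.56 and 1.45 times the control. Hairpin 1 passed 1.5-fold and hairpin 2 came just short of it. EIF2B4, the delta subunit, had 3992, 3642 and 3662 bp. EIF2B5, the catalytic subunit, had 2922, 3680 and 3599 bp. The regulatory subunits EIF2B1 and EIF2B2 had 3235, 3006 and 2960 bp, and 1769, 2440 and 2000 bp.

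The 4 eIF2 kinases differed little between lists. EIF2AK1, the heme-regulated kinase HRI, which also relays mitochondrial stress to eIF2, had 4980 bp in hairpin 1, 5154 bp in hairpin 2 and 5037 bp in the control, the widest of the kinases in each list. EIF2AK2, the double-stranded RNA sensor PKR, had 1852, 1780 and 1710 bp, and EIF2AK3, the endoplasmic reticulum kinase PERK, had 3017, 3106 and 2813 bp. EIF2AK4, the amino acid sensor GCN2, had 1689, 2107 and 2038 bp. Their ratios to the control lay between 0.83 and 1.08 in hairpin 1 and between 1.02 and 1.10 in hairpin 2, so none passed 1.5-fold. After scaling, 1 of the 4 stayed above the control in hairpin 2. EIF2AK1 peaks lay mostly after the start, with 3961, 4419 and 4233 bp downstream against 1019, 735 and 804 bp upstream.

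All 14 eIF3 genes were marked in every list, and downstream coverage exceeded upstream coverage in 11, 13 and 12 of them in hairpin 1, hairpin 2 and the control. Their median log2 ratio was 0.01 in hairpin 1 and 0.15 in hairpin 2, or 0.03 in hairpin 2 after the shift of the list. EIF3L, a peripheral subunit, and EIF3B had the most covered sequence in the control. EIF3L had 3930 bp in hairpin 1, 3986 bp in hairpin 2 and 4104 bp in the control, and EIF3B had 3906, 4455 and 3630 bp. EIF3C, a core subunit, had 2397, 1454 and 2343 bp, and its copy EIF3CL had 2262, 1953 and 2285 bp. Hairpin 2 was the low list at both copies, at 0.62 and 0.855 times the control, and 71 and 361 bp were covered upstream in hairpin 2 against 803 and 788 bp in the control. These peaks lie partly on the stretch in which the copies are identical, and how reads were placed there is not given, so neither copy's value is certain. With the 5' end of the gene as the start, EIF3C had 519 bp in hairpin 1 and 0 bp in hairpin 2 and the control, and the call in hairpin 2 ended. The 9 other subunits not described so far, EIF3A, EIF3D, EIF3E and EIF3G to EIF3K with EIF3M, lay between 0.69 and 1.41 times the control in hairpin 1 and between 0.999 and 1.29 times in hairpin 2.

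Of the 12 cap complex genes, 11 were marked in every list. In hairpin 2 their median log2 ratio was -0.06, or -0.17 after the shift of the list, with 7 genes below the control and 4 above it (36.4%). Of all marked genes, 66.4% were above the control in hairpin 2. In hairpin 1 the median of the cap complex genes was 0.04, and its sign turned to -0.01 after that list's shift. EIF4A2, an RNA helicase, had 3557 bp in hairpin 1, 3816 bp in hairpin 2 and 5435 bp in the control, or 0.65 and 0.70 times the control. Both hairpins were below the control, hairpin 1 past 1.5-fold and hairpin 2 short of it. The difference was larger after the start (2493, 2526 and 3912 bp) than before it (1064, 1290 and 1523 bp). Within 2.5 kb the values were 3557, 3791 and 4024 bp, and the call in hairpin 1 ended. The helicase EIF4A1 had 3223, 2406 and 2501 bp, so the paralogs did not share an order of lists.

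EIF4B, which assists the helicase, had 5161 bp in hairpin 1, 4958 bp in hairpin 2 and 5253 bp in the control. EIF4E, the cap-binding protein whose E box is shown above, had 4282, 4324 and 4473 bp, or 0.96 and 0.97 times the control. EIF4G1, the scaffold of eIF4F, had 3140, 2387 and 2920 bp, and EIF4G2, a related scaffold that does not bind eIF4E, had 3318, 4287 and 4500 bp. EIF4E3, a divergent cap-binding protein, had the least of the marked cap complex genes, with 685, 1112 and 1175 bp. Hairpin 1 was again the low list there, at 0.58 times the control, from a peak at score percentile 31.4. With the 5' end of the gene as the start, or in the higher-scoring 50% of each list, EIF4E3 had 0 bp in every list. EIF4A3, a helicase of the exon junction complex, had 2790, 3515 and 2708 bp, EIF4E2, a cap-binding relative, had 2644, 2918 and 2436 bp, and the scaffold EIF4G3 had 3119, 2598 and 2337 bp.

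The eIF4E-binding proteins, which hold eIF4E away from the scaffold until mTOR phosphorylates them, were marked in every list. EIF4EBP1 had 3124 bp in hairpin 1, 3147 bp in hairpin 2 and 2902 bp in the control, and EIF4EBP2 had 3330, 3126 and 3279 bp. EIF4EBP3 had 2333, 3701 and 2216 bp, so that hairpin 2 stood out at 1.67 times the control while hairpin 1 was at 1.05. The added length lay downstream, with 1410, 2842 and 1245 bp after the start. In the higher-scoring 50% of each list EIF4EBP3 had 2333, 3701 and 0 bp, so that both hairpins were above the control. Within 10 kb it had 4078, 5624 and 4128 bp, and the call in hairpin 2 ended. EIF4ENIF1, which carries eIF4E to the nucleus and to P bodies, had 3134, 3393 and 3000 bp.

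Subunit joining is represented by EIF5B and by EIF6, which keeps the ribosomal subunits apart. EIF5B had 4166 bp in hairpin 1, 4718 bp in hairpin 2 and 4642 bp in the control, and EIF6 had 2582, 2714 and 2305 bp. Their ratios to the control lay between 0.90 and 1.18.

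Elongation factor genes were marked in every list in 9 of 11 cases, EEF1A1 and EIF5AL1 being the others. All 9 had more covered sequence in hairpin 2 than in the control, with a median log2 ratio of 0.25, where 66.4% of all marked genes did. After the shift of the list 7 of the 9 did, with a median of 0.14, where 49.5% of all marked genes did. In hairpin 1 the median was 0.10, with 5 above the control and 4 below it. EEF1E1 and its readthrough EEF1E1-BLOC1S5 share a peak and are both counted among the 9. EEF2, the translocase, had 4690 bp in hairpin 1, 5678 bp in hairpin 2 and 3580 bp in the control, or 1.31 and 1.59 times the control. In hairpin 2 part of that length came from the separate upstream peak, and the promoter peaks alone spanned 4690, 4786 and 3580 bp. The 1.5-fold call of EEF2 ended in the higher-scoring 50% of each list, with equal list lengths, within 2.5 kb and after scaling.

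Of the subunits of the eEF1A exchange factor, EEF1B2 had 4064 bp in hairpin 1, 4189 bp in hairpin 2 and 4073 bp in the control, EEF1G had 3836, 4522 and 3864 bp, and EEF1D had 4081, 4486 and 3509 bp. None of them passed 1.5-fold, and EEF1D stood furthest from the control, at 1.16 times in hairpin 1 and 1.28 times in hairpin 2. EIF5A, which carries the amino acid hypusine and relieves stalled ribosomes, had 3509, 4254 and 3930 bp. EEF1A2 had 661, 1822 and 1272 bp, so the hairpins lay on opposite sides of the control, at 0.52 and 1.43 times it. EEF1A2 had 0 bp in all lists once their lower-scoring peaks were left out. EIF5A2, the second hypusinated isoform, had 2086, 1990 and 1678 bp, and EEF1E1, a scaffold of the tRNA synthetase complex, had 4187, 4667 and 3916 bp.

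The enzymes that modify elongation factors were all marked in every list. EEF1AKMT3, a lysine methyltransferase of eEF1A, had 3368 bp in hairpin 1, 3190 bp in hairpin 2 and 3084 bp in the control. EEF2K, the kinase that inactivates eEF2, had 3314 bp in hairpin 1, 3775 bp in hairpin 2 and 3079 bp in the control. EEF2KMT, which methylates eEF2, had 2056, 2338 and 2190 bp. The EEF1AKMT methyltransferases of eEF1A and the readthrough EEF1AKMT4-ECE2 had between 2319 and 3368 bp in hairpin 1, between 2212 and 3190 bp in hairpin 2, and between 2369 and 3084 bp in the control. No enzyme gene passed 1.5-fold in either hairpin.

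The differences between lists were also set against the TOP start and the E box. The 19 marked genes with a C and pyrimidine start had a median log2 ratio of -0.03 in hairpin 1 and 0.04 in hairpin 2, and the 47 others had 0.08 and 0.11. Among all marked coding genes the medians were 0.04 and 0.07 for 564 genes with such a start and 0.04 and 0.12 for 9579 others. The 17 genes with an E box had 0.08 and 0.12, and the 49 marked genes without one had 0.02 and 0.09. These differences are small beside the quartiles of the whole set, and no test was made of them.

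Beyond the initiation and elongation factors, 34 other genes of the pathway were examined, and 30 had a promoter peak in every list. Their median log2 ratio was -0.04 in hairpin 1 and -0.04 in hairpin 2. Of the 34, 2 had at least 1.5-fold more covered sequence in hairpin 1 (beside 14.2%) and 1 had less (beside 8.63%). In hairpin 2, 3 had more (beside 16.9%) and 0 had less (beside 6.5%). These shares are of coding genes covered in at least 1 list, whereas the 34 include PELO and PPP1R15A, with 0 bp in every list. All 9 mitochondrial translation factor genes were marked in every list. Among them MRRF, the mitochondrial ribosome recycling factor, had 4248 bp in hairpin 1, 3585 bp in hairpin 2 and 2655 bp in the control. TSFM, the exchange factor of mitochondrial elongation, had 2212, 1686 and 1397 bp. TUFM, the mitochondrial counterpart of eEF1A, had 2818, 2234 and 2471 bp. Of the 9 genes, 4 were above the control in hairpin 1 (44.4%, beside 56.0% of all marked genes) and 5 below. In hairpin 2, 3 were above it (33.3%, beside 66.4%) and 6 below. Their median log2 ratio in hairpin 2 was -0.06, or -0.18 after the shift of the list.

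Genes that act on the initiation and elongation factors included both hypusine enzymes, which modify EIF5A. DHPS had 1999 bp in hairpin 1, 2260 bp in hairpin 2 and 2018 bp in the control, and DOHH had 3535, 5306 and 2988 bp. The kinase gene MTOR had 1919, 1911 and 2205 bp. MKNK2, which phosphorylates eIF4E, had 1746, 5864 and 2342 bp. In hairpin 1 that sequence lay 3255 bp or more from the start and the promoter had no peak, and the hairpin 2 promoter peak stood at score percentile 20.5. PPP1R15A, the stress-induced subunit that returns eIF2 to its unphosphorylated form, had 0 bp in every list, and its constitutive relative PPP1R15B had 4259, 5887 and 4140 bp. The release factor gene ETF1 had 5194, 5688 and 5787 bp. The genes named in this paragraph and the last were chosen after their values were seen.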

How the data were processed

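Peak lists of 3 H3K27ac ChIP-seq libraries were used, and sample titles gave the groups. Reads with a single place in hg19 were kept, per the labels' protocols. The submitters' processing notes name Bowtie 0.12.7, Picard and hg19 but not what each was used for. The deposited lists hold peak positions and, for each peak, the authors' score. Peak names begin with MACS; how the input entered the calls, the threshold, the caller's version and read depths are not given in the sources used here. No input data were analysed here.

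Start sites were those of canonical transcripts in GENCODE release 44 mapped to GRCh37, the assembly of hg19 (19868 genes, all 71 members included), or else the gene's 5' end. No peak lay beyond a chromosome end. A symbol with several gene records kept the first. Covered base pairs within 5 kb and peaks within 1 kb of the start were computed for all 20149 coding genes. A gene at 0 in one list and above 0 in the other was counted as past 1.5-fold. Positions are 1-based. Alternatives were other peak subsets, start sites, windows, scaling and folds. Values in all lists were to be given for genes that change class, pass 1.5-fold in both hairpins or lack a peak, for the eIF2 kinases and for the 2 widest of each role. Other members named were chosen after their values were seen. The members, lists and motifs were chosen with earlier results of these data known. Not every gene of the red cell check is reported here. The code was tested on simulated data. Tools were pysam 0.24.0, pandas 2.3.3, numpy 2.4.6, matplotlib 3.10.9, SciPy 1.17.1 and Python 3.11.15.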

Additional observations from a re-analysis of the deposited data

How the results depend on the processing

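The count of genes marked in every list stayed between 60 and 66 under the alternatives run, and no gene was lost in both hairpins under any of them. EEF1A1 was gained in both hairpins in each setting. No setting could place a control peak there, since the nearest lay 42921 bp from the canonical start and the widest window was 10 kb. The settings therefore show only that the hairpin peaks at EEF1A1 stayed in, and not that the control lacked the mark. For fold counts in this section, the share in brackets is of all coding genes covered in at least 1 list under that setting. In the higher-scoring 50% of each list 3 genes were gained, EIF2S1 and EIF4EBP3 besides (4.23%, all coding genes 2.81%). There 4 had at least 1.5-fold more covered sequence in hairpin 1 (all genes 13.7%) and 2 had less (7.37%), and the hairpin 1 median log2 ratio was 0.0697. With the 5' end of the gene as the start, 3 genes had less in hairpin 1 (all genes 8.63%) and 0 in hairpin 2 (6.60%), and the hairpin 2 median was 0.114. With all basic transcripts the hairpin 1 median was 0.0575. EIF4E1B, with 0 bp around its canonical start, was then counted as less in both hairpins. With it, 6 genes had less in hairpin 1 (all genes 8.98%) and 3 in hairpin 2 (6.66%). Within 10 kb of the canonical start, EIF4E1B was instead counted as more in hairpin 2. With windows of 2.5 kb, 3 genes had less in hairpin 1 (all genes 7.12%) and the hairpin 2 median was 0.0510. With windows of 10 kb the medians were 0.0214 and 0.0530. After division by the median ratio the medians were 0.00024 in hairpin 1 and -0.0128 in hairpin 2, where the sign turned. With a threshold of 25% more in the higher list, 8 genes had more in hairpin 1 (all genes 24.2%), 9 had less (15.1%), and 10 had more in hairpin 2 (30.1%). At 2-fold, 1 had more in hairpin 1 (8.69%) and 0 less (5.29%), and 2 had more in hairpin 2 (9.48%) and 0 less (4.69%). Without copies and shared starts, 1 gene had less in hairpin 2 (6.5%), whose median was 0.116. Beyond these settings' own construction, the cause was not tested. The read depth is unknown and limits what an absent peak can show. No paired analysis was possible because each group has 1 library.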
